A study of Mus musculus with 7 samples.

Results

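Cytosolic ribosomal protein genes encode the proteins of the large and small subunits of the ribosome, and 84 of the 27179 genes in the deposited count table belong to them. They were taken by name, as mouse symbols made of Rpl or Rps with a number and at most a short suffix, together with Rplp0, Rplp1, Rplp2 and Rpsa. Rpl6l and Rps4l also match this pattern but are annotated as pseudogenes in RefSeq and were left out. The 84 genes fall into 43 large subunit genes, 31 small subunit genes, 3 genes of the acidic stalk (Rplp0, Rplp1 and Rplp2, at the factor-binding site of the large subunit), and 7 paralogs whose names end in l or l1 (Rpl3l, Rpl7l1, Rpl10l, Rpl22l1, Rpl32l, Rpl39l and Rps27l).

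A ribosome holds nearly all of these proteins in equal number, so cells make them together, and their genes are among the most transcribed in growing tissue. Their mRNAs start with a run of pyrimidines, the terminal oligopyrimidine (TOP) tract, through which their translation follows growth signals. Mouse mutants of single members have tissue-specific defects: loss of Rpl38 alters the vertebral column and the translation of Hox mRNAs, and mutants of Rpl24, Rps19, Rps20, Rpl27a and Rps7 show changes in pigment, tail or skeleton.

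The libraries come from chromatin immunoprecipitation and sequencing (ChIP-seq) with an anti-V5 antibody on the first and the second pharyngeal arches of C57BL/6 embryos at E10.5. V5 libraries are from embryos with a Flag-V5-BIO tag on the C-terminus of MOZ (KAT6A, a histone acetyltransferase), carried by both copies of the gene, and there are 3 of them. The wild-type (WT) libraries, also 3, are from arches without a tag on which the antibody was used in the same way, as a negative control. There is 1 input library, of tagged arches without immunoprecipitation. Homozygous tagged mice are viable and fertile per the series' design text. The values count DNA fragments over gene bodies, so the level of a cell type's marker gene does not show how many such cells were present, and the labelled tissue could not be checked in this way. Summed over 7 arch mesenchyme markers there were 123 to 155 CPM in V5 libraries, 98.5 to 144 CPM in WT libraries and 85.1 CPM in the input. Much of this sum was Prrx1, the longest of the 7, with 68.2 to 103 CPM in V5, 49.7 to 73.1 in WT and 35.8 in the input. Alx4 leaned the other way between the ChIP groups, with 13.6 to 35.9 CPM in V5, against 26.8 to 55.0 in WT and 24.7 in the input. Dlx5 held 33.5 CPM in V5 replicate 1 and 0.776 to 7.53 in every other library. Sums over 4 blood markers were 23.4 to 38.4 CPM in V5, above 14.8 to 22.5 in WT, with 22.1 in the input. In V5, WT and the input, endothelium markers held 129 to 163, 95.8 to 165 and 152 CPM. In the same order epithelium markers held 58.7 to 86.1, 44.7 to 78.3 and 86.6 CPM. Muscle progenitor markers held 0.878 to 6.39, 2.00 to 3.10 and 7.45 CPM. CPM is the count of a gene per 1e6 counts of its library.

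Library totals ranged from 806648 counts (V5 replicate 1) to 3286602 counts (V5 replicate 3) in V5 and from 1288732 to 2504595 counts in WT, with 3488745 counts in the input. V5 replicate 1 and replicate 2 were the shallowest libraries of all. No gene in the whole table passed at an adjusted p of 0.05 in edgeR's quasi-likelihood test of V5 against WT (0 of 14575 genes with enough counts), with 600 (4.12%) at an unadjusted p under 0.05. Of the other tools, DESeq2 called 0 genes and limma-voom 4, of which 1 was higher in V5 (0.00686%) and 3 lower (0.0206%).

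Promoter sequences were available from RefSeq (GRCm38.p6) for 64 of the 84 genes. They show what the members share by sequence. In 31 of the 64 the annotated start of the promoter table is also where the span taken for the gene begins. A run of at least 6 C or T letters lay within 5 bases of the start in 31 of 64 members (48.4%), against 20.9% of the 27025 genes with a promoter in the table. The sequence CCGGAAG on either strand, the core of sites for ETS factors such as GABPA, was in the window from 250 bases before to 50 after the start in 26 of 64 members (40.6%, against 9.17% of all). GGGCGG, the core of SP1 sites, was in 59.4% of members and 36.0% of all. AAGATGG, found in YY1 sites, was in 15.6% and 6.45%, and TATAAA in 12.5% and 14.1%. The short sequences were matched on both strands and the pyrimidine run on the gene's strand only. A run may end before the annotated start, as in Rpl4. These are matches of letters and no record of binding.

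Of the 10 members whose V5 and WT libraries did not overlap (described further on), 6 had a window in RefSeq with such a run at the start. They are shown from 80 bases before to 20 bases from the start, 5′ to 3′ on the gene's strand (plus in all), with the run in capitals. Rpl14, Rpl4 and Rpl7a lay higher in V5, and Rpl27a, Rplp2 and Rpl38 lower. The start used here lies at the beginning of the gene span in Rpl14, Rpl4, Rpl27a and Rplp2, and 122 bases from it in Rpl7a and 762 bases from it in Rpl38.
Rpl14 (chr9:120571437-120571536): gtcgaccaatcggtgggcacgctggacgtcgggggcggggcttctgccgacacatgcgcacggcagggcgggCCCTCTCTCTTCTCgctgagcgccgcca
Rpl4 (chr9:64173307-64173406): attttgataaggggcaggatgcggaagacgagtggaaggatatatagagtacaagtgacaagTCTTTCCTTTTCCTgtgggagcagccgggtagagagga
Rpl7a (chr2:26910727-26910826): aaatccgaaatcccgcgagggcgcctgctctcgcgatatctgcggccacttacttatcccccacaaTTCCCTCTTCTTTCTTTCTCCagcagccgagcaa
Rpl27a (chr7:109519115-109519214): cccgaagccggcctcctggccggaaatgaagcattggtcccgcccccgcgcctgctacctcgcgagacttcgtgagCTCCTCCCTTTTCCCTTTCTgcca
Rplp2 (chr7:141447571-141447670): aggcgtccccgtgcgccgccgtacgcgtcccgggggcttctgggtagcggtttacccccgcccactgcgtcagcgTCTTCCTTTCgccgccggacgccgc
Rpl38 (chr11:114668500-114668599): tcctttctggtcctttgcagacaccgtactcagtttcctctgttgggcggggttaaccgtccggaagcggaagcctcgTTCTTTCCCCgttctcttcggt

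As a group the ribosomal protein genes did not stand apart in V5. Together they held 188, 384 and 289 CPM in V5 replicates 1, 2 and 3, against 267, 237 and 274 CPM in WT replicates 1, 2 and 3. V5 replicate 1 was the lowest and V5 replicate 2 the highest of the 6, so the V5 values enclosed all of the WT values. The means were 287 ± 97.7 CPM in V5 and 259 ± 20 CPM in WT (SD, n = 3 each), a ratio of 1.11. Without V5 replicate 2 the ratio was 0.920, so that library decided its direction. Without V5 replicate 1 it was 1.30.

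Both ChIP groups had a lower mean than the input, although V5 replicate 2 exceeded it. The input held 314 CPM over the members, with a 95% exact binomial interval of 295 to 333 CPM that covers counting error only. V5 stood at 0.915 times this value and WT at 0.827 times, and all 3 WT libraries lay below the interval. There was 1 input library, so these ratios have no test.

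Per length, reads over the members were about as dense as over the whole table. The members had 0.663, 1.35 and 1.02 CPM per kb in V5, 0.939, 0.832 and 0.964 CPM per kb in WT and 1.10 CPM per kb in the input, while all genes together had 0.977. Autosomal genes of 1 to 10 kb, the size class of 80 of the 84 members, had 0.826 to 0.938 CPM per kb in V5, 0.752 to 0.773 in WT and 0.822 in the input. Short genes were thus denser in every V5 library than in any WT library. Set against the reads of these short genes in place of all reads, the V5 to WT ratio of the members was 0.960, below 1. The members were denser than the short genes in 6 of the 7 libraries and less dense in V5 replicate 1.

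**Figure D1:**
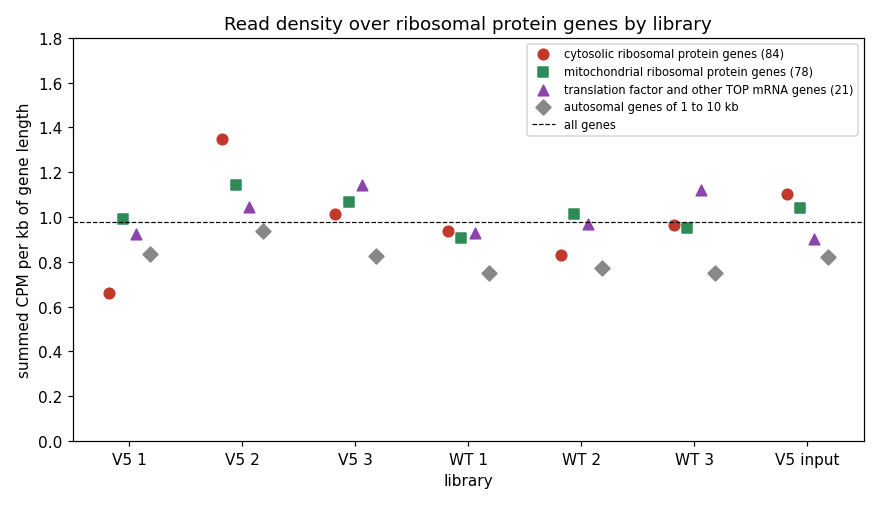
Summed CPM per kb of gene length (y axis) in each library (x axis) for 4 gene groups, each point 1 library; the dashed line is the value over all genes, 0.977. The ribosomal protein genes spread from 0.663 to 1.35 across the V5 libraries, wider than the WT libraries at 0.832 to 0.964.

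The large and the small subunit genes gave nearly the same ratio, and the stalk genes and paralogs a lower one. Large subunit genes held 137 ± 25.4 CPM in V5 and 118 ± 20 in WT (SD, n = 3 each), a ratio of 1.17. Small subunit genes held 112 ± 53.2 CPM in V5 and 94.8 ± 20.2 in WT, a ratio of 1.18. By library, large subunit genes had 110, 161 and 141 CPM in V5, against 102, 111 and 140 in WT. Small subunit genes had 63.2, 169 and 103 CPM in V5, against 116, 75.3 and 93.4 in WT. V5 replicate 2 was the highest library for both, and most of all for the small subunit. The stalk genes held 3.72, 22.8 and 6.09 CPM in V5, against 12.4, 12.1 and 12.4 in WT and 22.1 in the input. The paralogs held 11.2, 31.6 and 38.3 CPM in V5, against 37.2, 37.7 and 28.3 in WT and 44.1 in the input, a V5 to WT ratio of 0.786. For all 4 groups the V5 and WT libraries overlapped.

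Single members had few reads, which sets what can be said of them. Lengths ran from 592 to 11774 bp with a median of 3018.5 bp, against 12071 bp over all genes, and all 84 members together had 2883 counts in the 6 ChIP libraries. Across members, length and summed counts had a Spearman rho of 0.746 (n = 84, a description). In V5 replicate 1 the median member had 0.5 counts and 42 of 84 members (50%) had none, against 44.2% of short autosomal genes. The shares at 0 were 33.3% in V5 replicate 2 and 4.76% in V5 replicate 3, against 35.7%, 28.6% and 9.52% in WT replicates 1, 2 and 3 and 8.33% in the input. A count of 0 still allows 3.72 CPM in V5 replicate 1 and 0.913 CPM in V5 replicate 3, so a missing member in a shallow library was not shown to lack reads.

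**Figure D2:**
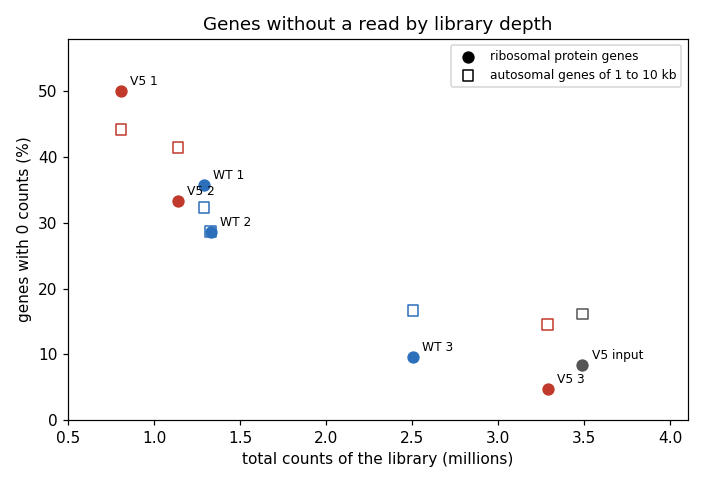
Share of genes with 0 counts (y axis) against the total counts of the library, in units of 1e6 (x axis); filled circles are the 84 ribosomal protein genes, open squares autosomal genes of 1 to 10 kb, with V5 in red, WT in blue and the input in grey. The share is highest in V5 replicate 1, at 50%, and at most 9.52% in the 3 deepest libraries.

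The reads of the shallow libraries sat on few members. The 5 members with the most reads held 42.8% of the members' reads in V5 replicate 1, 28.8% in V5 replicate 2 and 19.1% in V5 replicate 3, against 29.7%, 23.9% and 17.9% in WT and 21.3% in the input. The leading member was a different gene in each library: Rpl26, Rps14 and Rpl7l1 in V5, Rps26, Rpl39l and Rpl22 in WT, and Rps15a in the input. The variance of the counts across members was 6.52, 9.51 and 7.18 times their mean in V5 and 4.79 to 8.15 times in WT. In the input, the deepest library, it was 11.99 times, above every ChIP library. This measure tends to rise with the mean count, so libraries of different depth cannot be ranked by it. V5 replicate 2 was the highest of the 6 ChIP libraries in 30.9% of the members with reads, against 21.7% of all genes with reads.

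The order of members was barely shared between libraries. Over 81 members with reads, Spearman's rho of CPM per kb was -0.03 to 0.15 between V5 libraries, 0.15 to 0.20 between WT libraries, and -0.14 to 0.22 between V5 and WT libraries. Against the input it was -0.08 to 0.20 for V5 and 0.05 to 0.28 for WT. These are descriptions across genes in sparse counts, and all points of a pair share their libraries' depths.

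**Figure D3:**
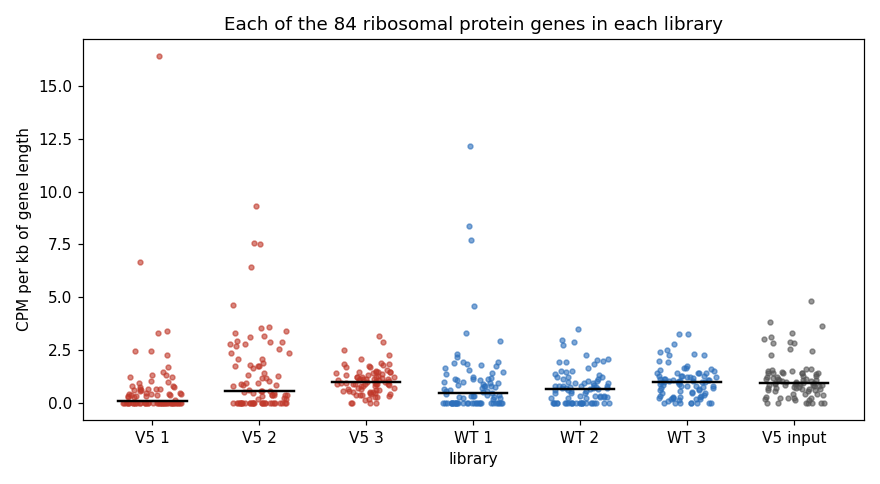
CPM per kb of gene length (y axis) of each of the 84 ribosomal protein genes in each library (x axis); 1 point is 1 gene, and the black line is the median. The median is 0.07 in V5 replicate 1 and 0.97 in V5 replicate 3, and single genes reach 16.4 (Rps27) in V5 replicate 1 and 12.2 (Rps26) in WT replicate 1.

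Only 7 members had enough reads for the gene-level test, and none of them passed: Rpl22, Rps19, Rps3a1, Rpl5, Rpl3l, Rpl7l1 and Rps27l. The share of genes called over the whole table was also 0%, in either direction. Of the 7, 5 were positive on the log2 scale (median 0.26), while 52.0% of all 14575 tested genes were positive, with a median of 0.02. The smallest p of the 7 was 0.331, for Rps3a1. The choice of these 7 follows their length and their reads, and they are not the members at large.

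Rpl22 is a large subunit protein needed for T cell development in mice (GeneID 19934, chromosome 4, 152324436 to 152334082 in mm10). It had the highest mean CPM of the members over the ChIP libraries, without division by its length of 8194 bp. It had 18.6, 14.1 and 9.13 CPM in V5, against 11.6, 5.27 and 11.6 CPM in WT and 8.31 CPM in the input, and the groups overlapped. Its log2 fold change was 0.55 (standard error 0.72; adjusted p = 0.988, edgeR). Rps19, the gene most often mutated in human Diamond-Blackfan anaemia (chromosome 7, 24884592 to 24889811), had 7, 12 and 15 counts in V5, against 4, 2 and 22 in WT and 18 in the input. WT replicate 3 lay inside the V5 range in CPM, and the log2 fold change was 0.74 (standard error 0.91; adjusted p = 0.984, edgeR). It was 1.75 without WT replicate 3, and 0.38 to 1.09 without any other 1 library. Rps3a1, which encodes a protein of the small subunit (chromosome 3, 86137940 to 86142668), had 1.24, 22.0 and 8.82 CPM in V5, against 7.76, 5.27 and 4.79 CPM in WT and 6.59 CPM in the input. Its V5 libraries lay on either side of all WT libraries, and its log2 fold change of 0.87 (standard error 0.87; adjusted p = 0.982, edgeR) was -0.07 without V5 replicate 2.

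Rpl5, which with Rpl11 binds and restrains MDM2 when ribosome assembly fails (chromosome 5, 107900508 to 107909005), was level between the groups. It had 12.4, 7.91 and 7.91 CPM in V5, against 6.21, 11.3 and 9.58 CPM in WT and 11.8 CPM in the input, a log2 fold change of 0.07 (standard error 0.77; adjusted p = 0.999, edgeR). The sign turned without V5 replicate 1 (-0.22) and without WT replicate 1 (-0.13). The gene overlaps Dipk1a, so some of its reads are uncertain. Its partner Rpl11 was too low to test, with 1, 0 and 10 counts in V5, against 0, 1 and 6 in WT and 17 in the input.

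The other tested members are paralogs, with names that end in l or l1. Rpl3l, the form of Rpl3 in striated muscle (chromosome 17, 24727826 to 24736143), had 2.48, 10.54 and 9.43 CPM in V5, against 9.31, 7.53 and 10.4 CPM in WT, and the input exceeded all of them at 11.8 CPM. Its log2 fold change was -0.23 (standard error 0.79; adjusted p = 0.997, edgeR), and 0.10 without V5 replicate 1. Rpl7l1, a relative of Rpl7 (chromosome 17, 46773907 to 46782656), had 1, 13 and 53 counts in V5, against 20, 8 and 10 in WT and 44 in the input. Its log2 fold change of 0.26 (standard error 0.85; adjusted p = 0.997, edgeR) was -0.33 without V5 replicate 3 and -0.12 without WT replicate 3. Rps27l, a relative of Rps27 that p53 induces (chromosome 9, 66944624 to 66949522), had 1.24, 7.91 and 4.87 CPM in V5, against 3.88, 9.79 and 8.38 CPM in WT and 11.2 CPM in the input. It had the lowest log2 fold change of the 7, at -0.61 (standard error 0.90; adjusted p = 0.988, edgeR), with overlapping groups.

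**Figure D4:**
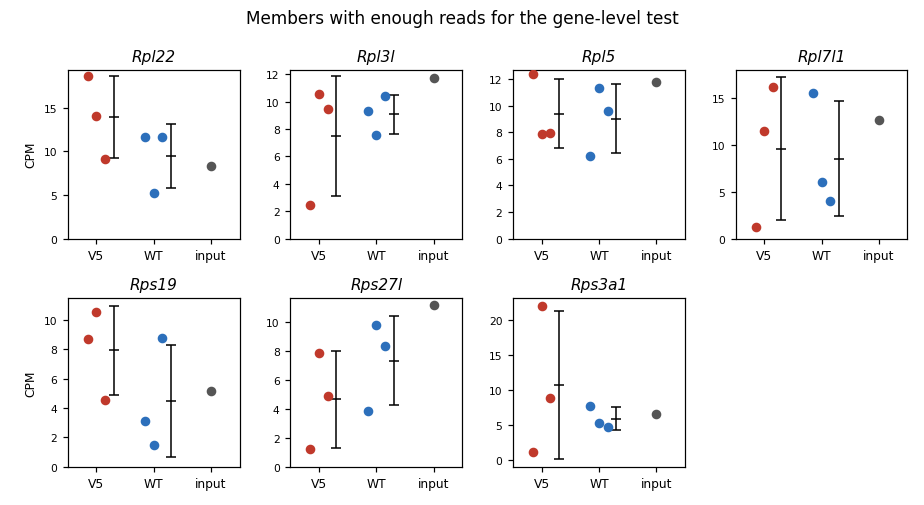
CPM (y axis) of the 7 members that could be tested, in V5 (red), WT (blue) and input (grey) libraries; points are libraries, and black bars are the mean ± SD of 3. In every panel the V5 and WT points overlap, and none of the 7 passed the test.

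With every gene that had a read in the test, 81 members could be compared and none passed. Of them 46 were positive and 35 negative on the log2 scale (median 0.27), and of all 24447 genes 49.7% were positive. Without V5 replicate 2 the count was 42 of 81 (48.1% over all genes) and the median 0.05, so the lean rested in part on that library. In this fit 9 genes were called as higher in V5, which is 0.0368% of the genes, and none of them was a member. That count turned on single libraries: it was 39 (36 higher and 3 lower in V5) without V5 replicate 2 and 3 without V5 replicate 1, again with no member. At an unadjusted p under 0.05 there were 5 members (Rps13, Rpl14, Rpl4, Rpl26 and Rpl10l), or 6.17%, against 5.50% of all genes. With a minimum count of 3 in place of 10, 47 members were tested, 23 positive and 24 negative, with a median of -0.12. Of all genes in that fit 51.2% were positive.

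In 10 members the V5 libraries did not overlap the WT libraries, split evenly between the directions. Of the 81 members with reads, 5 lay wholly above WT (6.17%), against 4.0% of all genes with reads and 3.89% of those of 1 to 10 kb. The other 5 lay wholly below (6.17%), against 4.70% of all and 4.54% of those of 1 to 10 kb. The shares are near those of the whole table. Some of the separations were narrow. The lowest V5 and the highest WT value were 1.24 (1 count) and 1.20 CPM for Rps25, and 2.48 (2 counts) and 2.26 CPM for Rpl14. For Rpl37a the highest V5 value was 3.35 CPM and the lowest WT value 3.59 CPM. A count of 0 in V5 replicate 1, as in Rpl37a, still allows 3.72 CPM. With 3 libraries against 3, groups that do not overlap always give p = 0.1 in the exact permutation test (two-sided). That is the smallest value it allows, and it follows from how these 10 were picked. No member passed over all genes.

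Rps13, a small subunit protein (chromosome 7, 116331507 to 116334190), and Rpl14, a large subunit protein (chromosome 9, 120571517 to 120574653), had the same counts in V5, 2, 23 and 9, and in the input, 7. In WT they differed, with 0, 0 and 4 counts for Rps13 and 1, 3 and 1 for Rpl14. Most of the V5 reads of each gene were in V5 replicate 2, and the other V5 libraries, at 2.48 and 2.74 CPM, were close to the input at 2.01 CPM. Rps13 holds the small RNA gene Snord14a. The ratio of mean CPM was 15.9 for Rps13 and 7.40 for Rpl14. On the log2 scale Rps13, at 3.99, was 2.29 without V5 replicate 2 and 3.41 without WT replicate 1 or replicate 2, and without WT replicate 3 its WT count was 0 and the ratio has no value. Rpl14, at 2.89, was 1.19 without V5 replicate 2 and 3.85 without WT replicate 2.

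Rpl4, whose product lines part of the exit tunnel of the ribosome (chromosome 9, 64173387 to 64178562), had 5, 15 and 12 counts in V5, against 0, 4 and 1 in WT. The input had 0 counts over its 5176 bp, which allows up to 0.860 CPM. V5 averaged 7.68 ± 4.93 CPM and WT 1.14 ± 1.64 CPM (SD, n = 3 each), and the lowest V5 library, replicate 3, had 3.65 CPM. Its fitted log2 fold change with every gene in the test was 2.74 (standard error 1.36; adjusted p = 0.893, edgeR). The log2 ratio of mean CPM, 2.75, was 5.26 without WT replicate 2 and 2.11 without V5 replicate 2.

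Rpl7a, a large subunit protein (chromosome 2, 26910685 to 26913312), had 2.48, 3.51 and 3.04 CPM in V5, against 2.33, 0 and 0.399 CPM in WT, so that WT replicate 1 nearly reached the V5 range. Rps25, a small subunit protein used by some viral and cellular internal ribosome entry sites (chromosome 9, 44407714 to 44410406), had 1, 9 and 13 counts in V5, against 0, 1 and 3 in WT. The input, at 4.30 CPM, was above V5 replicates 1 and 3. Rps25 overlaps Ccdc84, and its counts are therefore uncertain.

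On the lower side was Rpl38, the member tied to Hox mRNA translation and the axial skeleton in mice (GeneID 67671, chromosome 11, 114667818 to 114672333). It had 2, 0 and 14 counts in V5, against 16, 10 and 22 in WT and 11 in the input. That is 2.48, 0 and 4.26 CPM in V5, against 12.4, 7.53 and 8.78 CPM in WT and 3.15 CPM in the input. The input lay within the V5 values and below every WT library, and the ratio of V5 to WT means was 0.235. The fitted log2 fold change with every gene in the test was -1.94 (standard error 1.11; adjusted p = 0.907, edgeR). Without V5 replicate 3, which held most of its V5 reads, the gene passed the filter on low counts, with a value of -2.95 (standard error 1.39; adjusted p = 0.481, edgeR). It also passed the filter without V5 replicate 1 (-1.93, standard error 1.11), V5 replicate 2 (-1.39, standard error 1.03) or WT replicate 2 (-2.06, standard error 1.23). In those fits its adjusted p was at least 0.937 (edgeR).

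Rplp2, a stalk protein (chromosome 7, 141447651 to 141451359), had 1, 0 and 13 counts in V5, against 7, 10 and 21 in WT, and 47 in the input, whose 13.5 CPM exceeded all 6 ChIP libraries. Rps16, a small subunit protein (chromosome 7, 28350689 to 28352698), had 1.24, 1.76 and 2.43 CPM in V5, against 15.5, 4.52 and 5.59 CPM in WT and 1.43 CPM in the input. Here V5 and the input were alike in level and WT stood above them, most of all WT replicate 1. Rpl37a, a large subunit protein (chromosome 1, 72711260 to 72713813), had 0, 0 and 11 counts in V5, against 15, 5 and 9 in WT and 10 in the input. Rpl27a, mutated in the sooty foot ataxia mouse (chromosome 7, 109519195 to 109522369), had 1, 2 and 3 counts in V5, against 5, 7 and 10 in WT and 12 in the input. The ratio of mean CPM was 0.243 for Rplp2, 0.212 for Rps16, 0.176 for Rpl37a and 0.297 for Rpl27a. On the log2 scale Rplp2, at -2.04, was -3.52 without V5 replicate 3 and -1.45 without V5 replicate 2. Rps16, at -2.24, was -1.48 without WT replicate 1. Rpl37a, at -2.51, was -1.72 without WT replicate 1, and all of its V5 reads were in V5 replicate 3.

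**Figure D5:**
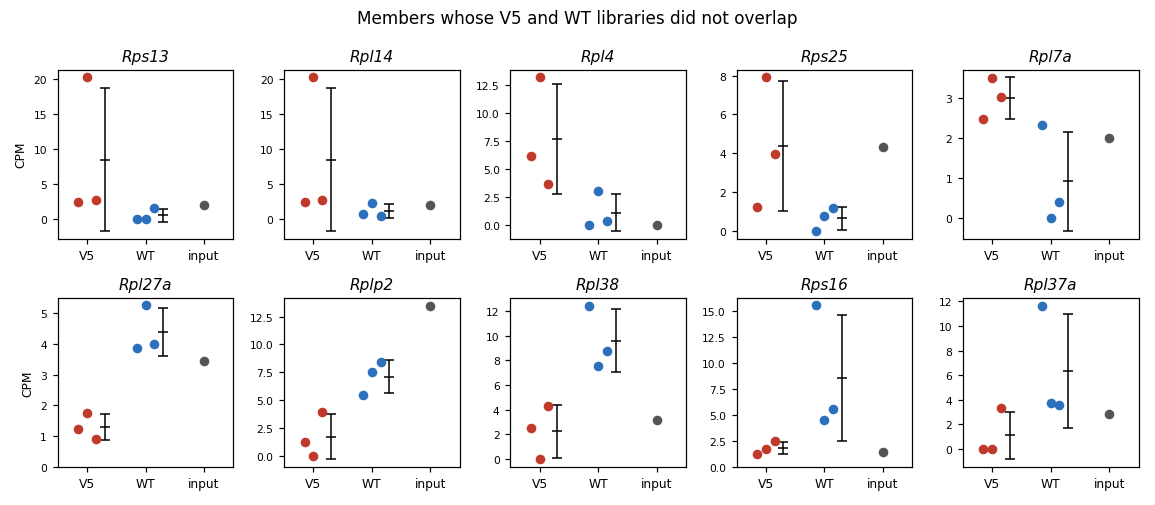
CPM (y axis, its own scale in each panel) of the 10 members whose V5 (red) and WT (blue) libraries did not overlap, with the input in grey; points are libraries, and black bars are the mean ± SD of 3. The upper row has V5 above WT and the lower row V5 below WT, and the input of Rplp2, at 13.5 CPM, is above every ChIP library.

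Several other large differences between group means rested on 1 library. Of 45 members with at least 30 counts in the ChIP libraries, 24 had a higher mean in V5, 10 were at least 2-fold higher in V5 and 9 at least 2-fold lower. The matching shares over all genes were not computed, so these counts do not set the members apart from other genes. Rpl26, a large subunit protein, had 16, 0 and 12 counts in V5, against 3, 0 and 2 in WT and 9 in the input, and its log2 ratio of 2.91 was 0.81 without V5 replicate 1. Rps14, a small subunit protein whose human gene is lost in the 5q- syndrome, had 2, 34 and 8 counts in V5, against 2, 4 and 12 in WT and 10 in the input. Its log2 ratio of 1.89 was -0.34 without V5 replicate 2. Rps26, a small subunit protein near the mRNA exit, had 1, 0 and 12 counts in V5, against 31, 2 and 6 in WT and 6 in the input, and its log2 ratio of -2.52 was -0.26 without WT replicate 1. Rpl35a had 1, 14 and 17 counts in V5, against 0, 0 and 9 in WT and 5 in the input, with overlapping groups. Its log2 ratio of 2.38 was 1.42 without V5 replicate 2, all of its WT reads were in WT replicate 3, and it overlaps Iqcg.

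Members of high level or with known mouse mutants gave no further separation. Rps15a, the longest member, had 0, 8 and 38 counts in V5, against 15, 9 and 18 in WT, and the input was above all ChIP libraries in CPM with 51 counts. Rps24 had 0, 21 and 9 counts in V5, against 4, 14 and 12 in WT and 18 in the input, and its log2 ratio of 0.20 was -2.17 without V5 replicate 2 and -0.12 without WT replicate 1. Rpl24, which is mutated in the belly spot and tail mouse, had 0, 5 and 24 counts in V5, against 3, 5 and 18 in WT and 21 in the input. These groups overlapped. Rps7 had 5, 1 and 20 counts in V5, against 15, 3 and 9 in WT and 19 in the input. Rps6, the substrate of S6 kinase, had 2, 0 and 16 counts in V5, against 0, 4 and 8 in WT and 11 in the input. The dark skin gene Rps20 had 0, 4 and 2 counts in V5, against 2, 0 and 3 in WT, with 15 in the input.

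Among the remaining stalk genes and paralogs, most had too few reads to compare. The stalk gene Rplp0, which holds the other stalk proteins, had 1, 13 and 5 counts in V5, against 6, 4 and 7 in WT and 24 in the input, and Rplp1 had 1, 13 and 2 in V5, against 3, 2 and 3 in WT and 6 in the input. In each of these V5 replicate 2 gave most of the V5 reads, and without it the log2 ratio was -1.34 for Rplp0 and -0.86 for Rplp1. The testis form Rpl10l, a gene of 1023 bp, had 0 counts in each V5 library, against 11, 0 and 4 in WT and 8 in the input, so its fold change has no usable size. Rpl22l1 had 0, 0 and 14 counts in V5, against 0, 2 and 6 in WT and 9 in the input. Rpl39l, another testis form, had 5, 2 and 12 counts in V5, against 0, 17 and 4 in WT and 13 in the input, and without WT replicate 2 its log2 ratio of -0.31 was 2.28 (0.04 without V5 replicate 2). Rpl13, Rpl28 and Rpl32l had 0 counts in all 7 libraries. Rpl32l lies wholly inside Map7, whereas Rpl28 overlaps no other gene of the table, and Rpl13 only a small RNA gene in 1.66% of its span.

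The input exceeded all 6 ChIP libraries in 17 of the 81 members with reads (21%), against 14.1% of all genes with reads and 12.8% of those of 1 to 10 kb. It was below all of them in 2 members, Rpl18 and Rps27 (2.47%, against 8.66% of all genes with reads). Whether the first share differs beyond the spread of the input was not tested, with 1 input library. Rpl23 had 3, 1 and 27 counts in V5, against 11, 5 and 13 in WT, and 48 in the input. Rpl10a had 0, 1 and 13 counts in V5, against 0, 5 and 5 in WT, and 43 in the input. Both encode large subunit proteins, and they are among the 17.

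Features of sequence and position divided the members without separating the groups. The 26 members with CCGGAAG in their promoter held 81.4 ± 12.2 CPM in V5 and 95.2 ± 3.57 CPM in WT, and the 38 without it held 154 ± 70.0 CPM in V5 and 122 ± 20.4 CPM in WT (SD, n = 3 each). Members with a pyrimidine run at the start held 96.1 ± 21.6 CPM in V5 and 103 ± 9.96 CPM in WT. Those without it held 140 ± 45.8 CPM in V5 and 114 ± 26.4 CPM in WT. In each of these classes the libraries of the groups overlapped.

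Many members share their span with other genes, where reads may be left uncounted. Of the 84, 35 overlap another gene of the table. Of these, 25 hold a small RNA gene, mostly a small nucleolar RNA in an intron, and 14 overlap a gene that is not a small RNA gene. The 49 that overlap none had 1.03 CPM per kb in V5, 0.934 in WT and 1.11 in the input, and the 25 with a small RNA gene had 0.930 in V5, 0.896 in WT and 1.07 in the input. RefSeq names 319 pseudogene copies for 63 of the members, with 24 for Rpl31 alone, and exon reads of such genes may have been lost or shared. Without the 35 overlapping members the ratio of V5 to WT sums was 1.10.

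Related genes outside the naming pattern had too few reads for the gene-level test. Fau, which encodes a small subunit protein made as a fusion with a ubiquitin-like protein, had 0, 1 and 4 counts in V5, against 0, 0 and 1 in WT and 5 in the input. Rack1, a scaffold on the small subunit, had 0, 14 and 21 counts in V5, against 4, 5 and 4 in WT and 18 in the input. The paralog Rpl36al had 0, 3 and 4 counts in V5, against 5, 1 and 2 in WT and 2 in the input. In all of them the V5 and WT libraries overlapped.

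Genes for the ribosome of mitochondria, a separate set of 78, had more reads, and 32 were tested. On the log2 scale 20 were positive and 12 negative (median 0.08). Their sums were 962, 1109 and 1037 CPM in V5, against 880, 985 and 924 CPM in WT and 1009 CPM in the input. V5 replicate 2 was again the highest and the groups overlapped. Of 21 translation factor and other TOP mRNA genes 13 were tested, 6 positive and 7 negative, with a median of -0.12. They held 307, 347 and 380 CPM in V5, against 309, 322 and 372 CPM in WT and 299 CPM in the input. No member of these lists was called.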

How the data were processed

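The authors deposited raw counts for each gene, beside its length. Named in the submitters' processing notes are featureCounts, bcl2fastq, MACS and build mm10; for the aligner, duplicates and counting options, nothing is given in the sources used. The deposited length was within 1% of the RefSeq GRCm38.p6 span for 64 of 84 members, so introns appear to be counted and a signal at the start is diluted. The 7 per-library files equal the columns of the joint table, and 25275 identifiers matched a symbol by gene identifier.

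Of the ribosomal protein genes, 7 passed filterByExpr (minimum count 10). V5 and WT were compared over all 14575 genes tested with edgeR 4.0.16 in R 4.3.3 (TMM; glmQLFit, robust; two-sided glmQLFTest; Benjamini-Hochberg threshold 0.05), tested on simulated data. Alternatives used DESeq2 1.42.0, limma-voom (limma 3.58.1), other filters and scalings, and each replicate left out. Lists have no test. Members, lists and tests were chosen with earlier results of these data known. Named were all tested members, the 8 of highest ChIP level, the 5 highest and lowest ratios among members with at least 30 ChIP counts, those at 0, stalk genes, paralogs and members with mouse mutants or p53 roles; Rpl7a, Rps25, Rpl10a, Rpl18, Rpl23, Rps27 and Rpl31 were chosen after their values were seen. No label says whether replicates are separate embryos or litters, so p-values measure the spread between libraries, which may be technical. A gene of the list of related genes is not reported here.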

Additional observations from a re-analysis of the deposited data

How the results depend on the processing

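The ratio of summed member CPM of V5 over WT ranged from 0.920 to 1.30 over 15 alternatives and moved by less than the spread of the V5 libraries (SD 0.377) in all of them, although it was below 1 without V5 replicate 2 and over short genes. The WT to input ratio of 0.827 was 0.897 when set over the reads of autosomal genes of 1 to 10 kb, a move larger than the WT spread. The number of genes called in the whole table, 0, was 9 with no filter on low counts and 4 with limma-voom. With the filter kept and a replicate left out it was 0 to 2. The count of tested members with a positive log2 fold change, 5 of 7, was 46 of 81 with no filter and 46 of 81 with DESeq2. It was 23 of 47 with a minimum count of 3, as more members entered. Over all genes tested, 52.0% were positive in the main fit, 49.7% with no filter, 51.6% with DESeq2 and 51.2% with a minimum count of 3. Settings with no filter and 1 library fewer were chosen after seeing the data. They gave 53 of 81 without V5 replicate 1, where 47.8% of all genes were positive. Without V5 replicate 2 they gave 42 of 81, where 48.1% of all genes were positive. Over all genes, 3 were called without V5 replicate 1 and 39 without V5 replicate 2. The log2 fold change of Rpl5 was -0.11 with limma-voom; with a replicate left out it ranged from -0.22 to 0.25, that of Rpl3l from -0.48 to 0.10, that of Rpl7l1 from -0.33 to 0.99 and that of Rps3a1 from -0.0697 (without V5 replicate 2) to 1.33. The cause was not tested. Same-numbered libraries were not paired by the data. The correlation of deviations was 0.01, 0.01 and 0.06 for replicates 1, 2 and 3 over 14575 genes. Not every library correlated best with its own number. With a replicate block 1 gene and no member was called. In that fit 5 of 7 members were positive with a median of 0.29, against 48.4% of all genes. The mean of paired ratios of the sums was 1.13. No member was called under any alternative run.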

Other observations

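Eef2, which encodes the elongation factor that moves the ribosome along the mRNA, had the smallest p of the translation factor list when every gene with a read was tested, and was chosen for that after its values were seen. It had 1, 30 and 32 counts in V5, against 0, 1 and 6 in WT and 28 in the input. Its log2 value of 3.31 (standard error 1.15; adjusted p = 0.636, edgeR) did not pass. V5 replicate 1, at 1.24 CPM, lay inside the WT range, and the input had 8.03 CPM, close to V5 replicate 3 at 9.74 CPM.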
